A study of Mus musculus with 21 samples.

Results

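The CysGCA genes are the copies of the transfer RNA that carries the anticodon GCA and delivers cysteine to the ribosome. They were taken as every tRNA gene whose name ends in -CysGCA, which gave 70 of the 3283 tRNA genes in the Pol III table and 31 of the 1143 genes in the tRNA-seq table. The tRNA-seq table listed 317 distinct read sequences at these genes among 32419 in all. Back skin came from male mice of a C57Bl6/J CBA F1 background at postnatal day 25, when hair follicles are growing. WT mice were compared with NSun2 -/- mice from the same breedings, which carry a gene trap inserted in Nsun2 in every cell rather than in the skin alone. tRNA-seq and RNA bisulphite sequencing each had 4 WT and 4 NSun2 -/- libraries. Pol III ChIP-seq, with an antibody against the Pol III subunit POLR3A, had 2 WT libraries, 1 NSun2 -/- library and 1 input library of each genotype, with skin of 3 mice pooled for each.

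RNA polymerase III transcribes tRNA genes from promoter elements that lie inside the gene. The precursor is cut at both ends, the bases CCA are added to its 3′ end, and many bases are modified. NSun2 is a methyltransferase that places 5-methylcytosine on tRNAs, and tRNAs can be cut in the anticodon loop into 5′ and 3′ fragments. Genes that differ in sequence outside the anticodon are called isodecoders.

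CysGCA isodecoders could be told apart by a few bases, and the base at position 16, in the D loop, separated the main groups. Positions are counted from 1 at the 5′ end of the gene. The sequences below are from the mm9 genome, with base 16 and the anticodon GCA at positions 33 to 35 in capitals, and they are shown because the fragments described later start at their first base.
chr11.trna1432, chr11.trna1433, chr11.trna791 and chr6.trna157: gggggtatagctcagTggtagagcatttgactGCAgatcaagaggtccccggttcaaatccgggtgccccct
chr11.trna1442: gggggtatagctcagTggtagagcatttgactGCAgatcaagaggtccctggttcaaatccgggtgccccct
chr9.trna593 and chr17.trna458: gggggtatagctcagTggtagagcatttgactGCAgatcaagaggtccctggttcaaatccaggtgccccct
chr6.trna1029: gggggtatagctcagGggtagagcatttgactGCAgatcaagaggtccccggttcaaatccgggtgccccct
chr11.trna1444: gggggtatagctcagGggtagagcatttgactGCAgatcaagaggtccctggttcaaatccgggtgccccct
chr6.trna1022: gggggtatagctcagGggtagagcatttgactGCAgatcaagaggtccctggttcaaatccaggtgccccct
chr6.trna1033: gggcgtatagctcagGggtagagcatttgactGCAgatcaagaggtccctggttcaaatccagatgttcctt

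Measured from the sequence shared by the first 4 genes, chr11.trna1442 carried C50T, and chr9.trna593 and chr17.trna458 carried C50T and G62A. The sequence of chr6.trna1029 differed by T16G alone, that of chr11.trna1444 by T16G and C50T, and that of chr6.trna1022 by T16G, C50T and G62A. Position 62 lies in the 3′ strand of the T arm, so it separates 3′ fragments as base 16 separates 5′ fragments.

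A search of mm9 for the 16 bases common to the located genes found 54 CysGCA loci with 22 distinct sequences of 72 bases. T stood at position 16 in 7 loci (called T16 here), G in 46 (G16) and A in 1. The copies with G were clustered. Chromosome 6 held 44 of the 46 G16 loci within 230.6 kb (chr6:48083936-48314515), and 29 loci had exactly the chr6.trna1022 sequence. The T16 loci were spread over 4 places: 4 lay on chromosome 11, and 1 each on chromosomes 6, 9 and 17. The gencode annotation of mm9 put 45 loci in introns and 9 between genes. The 5 full-length G16 genes of chromosome 6 that were located by name (chr6.trna1020, chr6.trna1022, chr6.trna1026, chr6.trna1029 and chr6.trna1033) lay in introns of the lincRNA Gm16630. All 7 T16 loci were intergenic: chr11.trna1432 (chr11:97850237-97850308, minus strand) and chr11.trna1433 (chr11:97849560-97849631, minus) lay near Arl5c, and chr11.trna791 (chr11:97658386-97658457, plus) and chr11.trna1442 (chr11:97660220-97660291, minus) near Lasp1. The others were chr6.trna157 (chr6:47928996-47929067, plus), chr9.trna593 (chr9:104306386-104306457, plus) and chr17.trna458 (chr17:71948611-71948682, plus). Base 16 was known for 7 T16 and 22 G16 genes of the Pol III table and not for the other 41.

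Pol III ChIP-seq asked which of the CysGCA copies are occupied in skin. A gene was called bound with at least 10 counts in each of the WT libraries, and with 2-fold or more over the WT input in each. By this rule 6 of the 70 CysGCA genes (8.57%) were bound, beside 6.46% of all 3283 tRNA genes. All 6 were T16 genes, and none of the 22 G16 genes or of the 41 others passed the rule. Counts at chr11.trna1433 were 266 and 376 in the WT libraries and 594 in the NSun2 -/- library, against 4 and 1 in the WT and NSun2 -/- inputs. Counts at chr11.trna1432 were 216, 294 and 540 in the same order, against 3 and 4 in the inputs. These genes, which share a sequence and lie next to each other, were the most occupied of the family. The other bound copies of the same sequence had fewer counts, 93, 118 and 207 at chr6.trna157 and 85, 111 and 211 at chr11.trna791. Counts were 44, 68 and 116 at chr11.trna1442 and 16, 36 and 46 at chr9.trna593, the bound gene with the fewest counts. Since reads that match several genes were spread over them, counts of identical copies are not separate measurements except through reads that reach the flanks.

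Some genes lay close to the rule's limits. Inside it, chr11.trna1442 stood at 2.78-fold and 2.49-fold over the input and chr9.trna593 at 2.45-fold and 3.11-fold in the WT libraries. Outside it, the G16 gene chr6.trna1029 stood at 2.16-fold and 4.92-fold but had 9 counts in WT replicate 1, below the limit of 10. The G16 gene chr6.trna172 had 13 and 21 counts and stood at 2.02-fold and 1.85-fold, and the G16 gene chr9.trna592 had 17 and 17 counts and stood at 2.59-fold and 1.51-fold, so that each missed the fold limit in WT replicate 2. The gene chr6.trna1024, whose base 16 is not known, had 18 and 12 counts and stood at 4.10-fold and 1.64-fold. The seventh T16 gene, chr17.trna458, had 9 and 35 counts in WT and 28 in NSun2 -/- skin and stood at 0.617-fold and 1.30-fold. The 22 G16 genes had between 3 and 33 counts in WT replicate 1 and between 1 and 41 in WT replicate 2. Their highest counts were at chr11.trna1444, with 33, 41 and 51 counts in WT and NSun2 -/- skin and 12 counts in the WT input.

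The 6 bound genes held 60.7% and 61.3% of the CysGCA counts in the WT libraries and 76.5% in the NSun2 -/- library, against 8.0% and 6.46% in the inputs. The NSun2 -/- library had a larger share of its counts at bound genes across all families, 78.9%, against 65.5% and 70.2% in WT. Scaled to the library total, the median log2 ratio of NSun2 -/- to WT over the bound CysGCA genes was 0.03, with a range from -0.08 to 0.12. Between the 2 WT libraries it was -0.31, so by this median the genotypes lay closer together than the WT libraries did. The median over all 212 bound tRNA genes was 0.16. Scaled by counts at bound genes instead, the median was -0.19 for the bound CysGCA genes and -0.05 for all bound genes. The CysGCA median was 0.19 without WT replicate 1 and -0.06 without WT replicate 2. Over the 64 CysGCA genes that were not bound the median ratio was -0.99, beside -1.03 over all 3071 tRNA genes that were not bound. With 1 NSun2 -/- library no test was run.

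**Figure D1:**
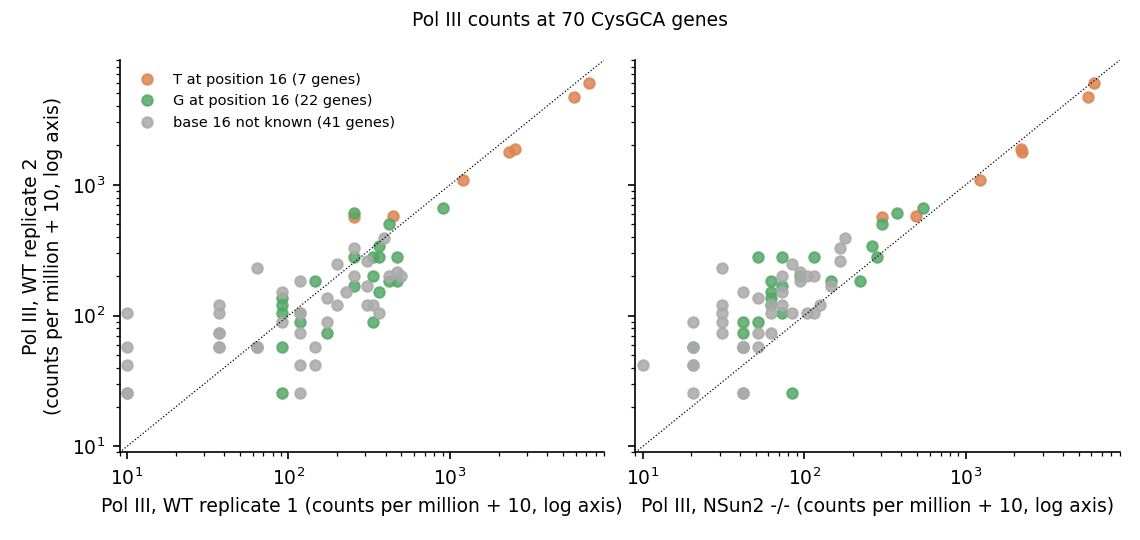
Pol III counts scaled to the library total (CPM), plus 10, at the 70 CysGCA genes, on log axes, for WT replicate 2 against WT replicate 1 (left) and against the NSun2 -/- library (right). Each point is a gene, coloured by base 16, and the dotted line marks equal values. The 6 bound genes, all T16, lie near the line in both panels, while most other genes lie above it in the right panel.

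tRNA-seq counted short RNAs at each tRNA gene, and the deposited counts weighted each read by the number of gene copies it matched. Of the 15 CysGCA sequences with at least 100 reads and an exact match in mm9, 14 had counts that were whole multiples equal to their copy number. Of all 109 CysGCA sequences of 20 nt or more with an exact match 42 did, which held 98.6% of the 73540 reads of that set, and the factor of the other, mostly rare sequences differed from their copy number. The 32-nt T16 fragment was counted 7 times per read and the 32-nt G16 fragment 37 times. Values below are therefore given as reads, meaning each sequence once with its count divided by its common factor, and as RPM, that is reads scaled to the total of reads recovered from the library in this way. Tests are given on the deposited counts and on reads, the latter added after the data were seen. The libraries held 17352126 to 36749727 deposited counts, or 828615 to 1369285 recovered reads. CysGCA reads numbered 3275, 6847, 9968 and 6917 in WT and 8802, 20217, 16649 and 5824 in NSun2 -/- skin.

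Most CysGCA reads in both genotypes were 5′ fragments, that is reads of 25 to 40 nt that begin at the first base of the gene. The T16 fragments stood higher in every NSun2 -/- library than in any WT library and the G16 fragments did not, although the 2 differ by a single base in their first 32 positions. The leading sequences are shown with base 16 in capitals.
T16 fragment of 32 nt: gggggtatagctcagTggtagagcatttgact
T16 fragment of 33 nt: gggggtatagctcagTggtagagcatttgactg
T16 fragment of 34 nt: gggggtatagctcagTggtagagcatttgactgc
G16 fragment of 32 nt: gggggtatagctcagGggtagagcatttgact
G16 fragment of 34 nt: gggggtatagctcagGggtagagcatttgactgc

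T16 fragments of all lengths without mismatch stood at 2077, 3710, 5576 and 4270 RPM in the 4 WT libraries. In the NSun2 -/- libraries they stood at 7905, 13161, 12728 and 6233 RPM, each above all WT libraries. The means were 3908 ± 1450 in WT and 10007 ± 3465 in NSun2 -/- (SD, n = 4 each). G16 fragments stood at 407, 1595, 2126 and 921 RPM in WT and at 278, 535, 658 and 139 in NSun2 -/- skin. These ranges overlapped, with means of 1262 ± 754 and 402 ± 237 (SD, n = 4 each). T16 and G16 fragments without mismatch made up 93.4% to 97.5% of all CysGCA 5′ fragment reads.

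Within each library the T16 fragments outnumbered the G16 fragments. The ratio was 5.11, 2.33, 2.62 and 4.64 in WT and 28.5, 24.6, 19.3 and 44.9 in NSun2 -/- skin, so the lowest NSun2 -/- ratio lay well above the highest WT ratio. This ratio does not depend on how the libraries were scaled, since both fragments were read in the same library. The grouping by base 16 was chosen after the values were seen, and the ratio is given without a test. In mm9, 7 loci carry the 32-nt T16 fragment and 37 the G16 fragment.

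**Figure D2:**
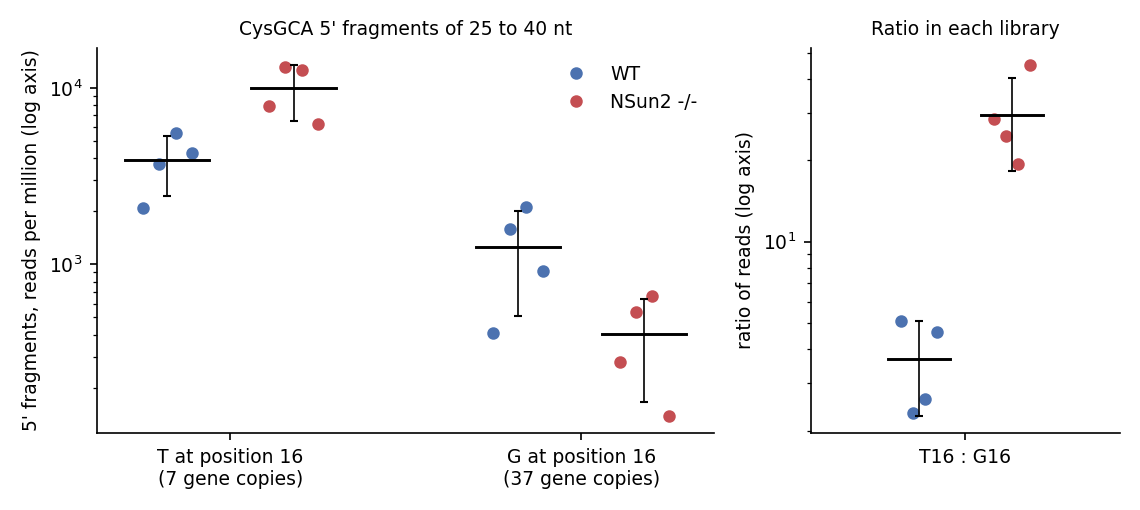
CysGCA 5′ fragments without mismatch in RPM (left, log axis), by base 16, and the ratio of T16 to G16 fragment reads in each library (right, log axis). Points are the 4 WT and 4 NSun2 -/- libraries, lines the means and bars the SD. The T16 values and the ratios of the genotypes do not overlap, while the G16 values do.

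Tested as single sequences, the T16 fragment of 33 nt was higher in NSun2 -/- skin. It had 82, 98, 230 and 178 reads in WT and 480, 876, 841 and 312 in NSun2 -/- skin, with no overlap. Its log2 fold change was 2.23 (SE 0.44, edgeR quasi-likelihood test on deposited counts, adjusted p = 0.0401, n = 4 each), and on reads 2.35 (SE 0.47, edgeR adjusted p = 0.023). The T16 fragment of 32 nt, with 1808 to 5671 reads in WT and 4128 to 15677 in NSun2 -/- skin, had a log2 fold change of 1.49 (SE 0.46) that did not pass (edgeR adjusted p = 0.166, and 0.0836 on reads). The T16 fragment of 34 nt gave 1.20 (SE 0.38, edgeR adjusted p = 0.176, and 0.0787 on reads). The G16 fragment of 32 nt gave -1.47 (SE 0.67, edgeR adjusted p = 0.357) and that of 34 nt -2.18 (SE 0.63, edgeR adjusted p = 0.135). Spread between libraries of a genotype was wide for the G16 fragments, from 370 to 2249 reads of the 32-nt form in WT.

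Of 143 CysGCA sequences tested on deposited counts, 2 were higher and 3 lower in NSun2 -/- skin, beside 2.46% of all 12869 sequences tested (0.932% higher and 1.52% lower). The second higher one was an internal piece of the T16 5′ part with 5, 8, 12 and 9 reads in WT and 25, 27, 48 and 21 in NSun2 -/- skin. The 3 lower ones were rare, with at most 9 reads in a WT library and 0 in all 4 NSun2 -/- libraries. The deposited counts multiplied these reads, so that 9 reads in WT replicate 3 stood as 198 counts. None of the 3 was tested by edgeR on reads. They were 2 forms of the G16 5′ part and a 3′ piece with A at position 62. On reads, 4 of 33 tested were higher and 3 lower, beside 7.07% of 5032 (2.7% higher and 4.37% lower). On deposited counts no CysGCA sequence was called higher, and at most 1 lower, when any library was left out. The call of the 33-nt T16 fragment was thus lost in each of these fits (edgeR adjusted p = 0.0708 to 0.129, log2 fold change 2.07 to 2.55). On reads its call was lost without WT replicate 2 (edgeR adjusted p = 0.088), WT replicate 4 (0.0738), NSun2 -/- replicate 2 (0.0604) or NSun2 -/- replicate 3 (0.0753).

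Summed over the family, the deposited counts weighted a G16 fragment by 37 and a T16 fragment by 7, and the values on deposited counts and on reads differed. On deposited counts, 5′ fragments of CysGCA gave a log2 fold change of 0.11 (SE 0.35, edgeR adjusted p = 0.819), where 21.4% of the 42 families tested were called, all higher. On reads the same fragments gave 0.99 (SE 0.32, edgeR adjusted p = 0.0238), where 35.7% of 42 families were called (28.6% higher and 7.14% lower). The call on reads was lost without WT replicate 4 (edgeR adjusted p = 0.0622) or without NSun2 -/- replicate 3 (edgeR adjusted p = 0.0892). RPM of all CysGCA 5′ fragments were 2659, 5595, 7962 and 5366 in WT and 8391, 14110, 13778 and 6586 in NSun2 -/- skin, and the genotypes overlapped. WT replicate 1 was the lowest and NSun2 -/- replicate 4 lay below WT replicate 3.

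The share of CysGCA reads that were 5′ fragments was 84.2%, 90.8%, 92.9% and 90.1% in WT and 93.0%, 95.6%, 95.5% and 93.7% in NSun2 -/- skin, with no overlap. The difference of 4.92 percentage points had a two-sided exact permutation p of 0.02857, the smallest that 4 against 4 libraries can give. It was 3.17 points without WT replicate 1, and the exact permutation p was 0.0571 without that library or without any one of the NSun2 -/- libraries. In deposited counts the difference was 1.96 points (exact permutation p = 0.543). CysGCA made up 0.596% of all reads in WT and 1.13% in NSun2 -/- skin (difference 0.535 points, exact permutation p = 0.0571), and 0.449% and 0.425% of deposited counts (exact permutation p = 0.943).

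Nearly all CysGCA 5′ fragments ended at position 32, 33 or 34, next to or inside the anticodon. The 32-nt form, which ends just before the anticodon, made up 84.2% of T16 fragments in WT skin, 83.5% in NSun2 -/- skin, and 94.1% and 94.7% of G16 fragments. Ends after the first base of the anticodon, at position 33, took up 2.12%, 1.10%, 1.60% and 1.98% of CysGCA 5′ fragment counts in WT and 5.62%, 4.13%, 4.68% and 5.43% in NSun2 -/- skin, without overlap. The exact permutation p was 0.02857, and 0.0857 adjusted over the 3 end positions tested, the smallest adjusted value a single position could reach. On reads these ends took up 2.77% ± 0.61 in the WT libraries and 5.58% ± 0.63 in the NSun2 -/- libraries (SD, n = 4 each), with the same exact permutation p before and after adjustment. Ends at position 32 took up 89.3% ± 1.8 of the counts in the WT libraries and 85.1% ± 3.1 in the NSun2 -/- libraries (SD, n = 4 each, exact permutation p = 0.0857, adjusted 0.129), with overlap. Without NSun2 -/- replicate 2 the adjusted exact permutation p was 0.0429 for both position 32 and position 33. On reads position 32 held 86.1% and 83.8% (exact permutation p = 0.286). Ends at position 34, also inside the anticodon, were more frequent and did not separate the genotypes, at 7.50% ± 1.38 in the WT libraries and 8.62% ± 2.71 in the NSun2 -/- libraries (SD, n = 4 each, exact permutation p = 0.486). On reads they stood at 9.61% and 9.37% (exact permutation p = 0.914). Among T16 fragments alone, the 33-nt form held 3.33% ± 0.65 (SD, n = 4) in the WT libraries, against 5.71% ± 0.60 (SD, n = 4) in the NSun2 -/- libraries.

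**Figure D3:**
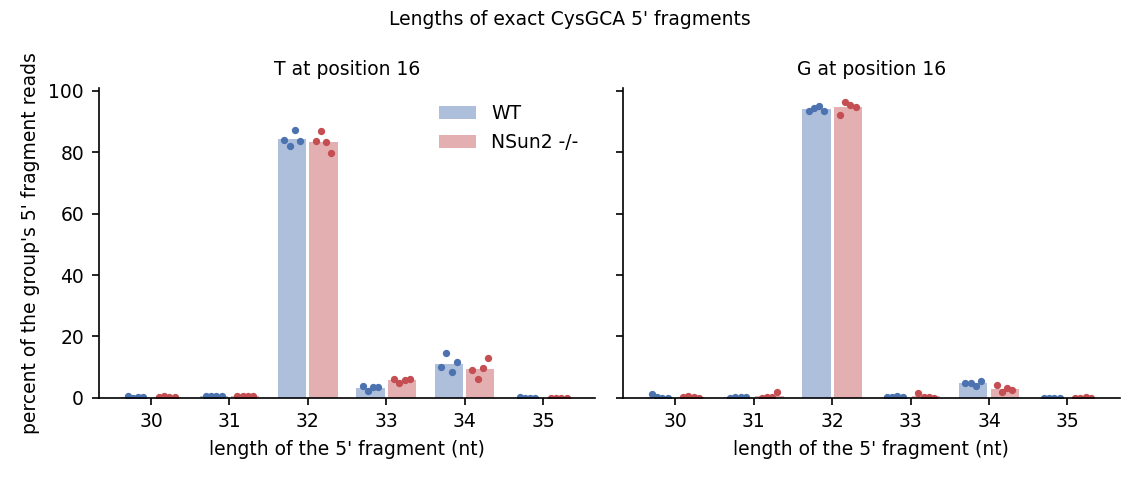
Length of exact CysGCA 5′ fragments, as percent of the T16 (left) or G16 (right) fragment reads of each library, for lengths of 30 to 35 nt. Bars are means of 4 libraries and points the libraries. The 32-nt form dominates in both genotypes, and the 33-nt T16 form is higher in each NSun2 -/- library than in any WT library.

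When all counts listed at a gene were summed, 25 CysGCA genes were tested and 4 were higher in NSun2 -/- skin, beside 13.1% of all 352 genes (9.09% higher and 3.98% lower). All 4 were T16 genes that Pol III occupied: chr11.trna1432 (log2 fold change 1.52, edgeR adjusted p = 0.0337), chr9.trna593 (1.46, 0.0355), and chr11.trna791 and chr6.trna157 (both 1.45, 0.0394). The genes are not separate measurements, and chr11.trna1433, the CysGCA gene with the most Pol III counts, was not listed in tRNA-seq. chr11.trna1432 and chr9.trna593 list the same T16 fragments. No 5′ fragment is listed at chr11.trna791 and chr6.trna157, which have identical counts of 46 to 58 in WT and 74 to 250 in NSun2 -/- skin. chr6.trna161 and 14 other G16 genes list nearly the same counts, with a log2 fold change of -1.31 at chr6.trna161 (SE 0.58, edgeR adjusted p = 0.174). The G16 gene chr11.trna1444, which lists more sequences, gave -1.25 (SE 0.54, edgeR adjusted p = 0.174). On reads, 6 of 25 CysGCA genes were higher, the same 4 with chr11.trna1442 and chr17.trna458 (both 1.45, edgeR adjusted p = 0.0333), and the last of these was not bound by the rule above. The G16 gene chr6.trna1033 was lower (log2 fold change -0.99, SE 0.31, edgeR adjusted p = 0.0385), beside 22.2% of 288 genes (14.9% higher and 7.29% lower). Its call was lost when any library but WT replicate 1 was left out, since no CysGCA gene was then called lower on reads. Without WT replicate 1, 17 CysGCA genes were called lower, beside 43 of all 292 genes. Across the fits on reads that each left out a library, 4 or 6 CysGCA genes were called higher. On deposited counts the calls were not stable either: at most 2 CysGCA genes were called when any library was left out. DESeq2 called 2 higher and 16 lower of 31 CysGCA genes, beside 52 higher and 49 lower of all 1143.

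Some reads covered a whole CysGCA gene and ran into genomic bases on both sides, as unprocessed precursors do, and these were found mainly in WT libraries. Flanking bases are in capitals.
chr6.trna1033, 78 nt: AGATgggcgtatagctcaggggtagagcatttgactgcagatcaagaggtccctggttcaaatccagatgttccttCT
chr9.trna593, 86 nt: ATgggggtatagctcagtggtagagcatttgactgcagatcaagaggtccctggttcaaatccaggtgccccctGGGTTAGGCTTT

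The 78-nt form had 19, 20, 33 and 31 reads in WT and 1, 0, 2 and 0 in NSun2 -/- skin. Its log2 fold change was -4.67 on reads (SE 0.67, edgeR adjusted p = 0.0087) and -4.76 on deposited counts (SE 1.09, edgeR adjusted p = 0.0618). The 86-nt form had 13, 20, 29 and 16 reads in WT and 1, 0, 0 and 4 in NSun2 -/- skin, a log2 fold change of -3.54 on reads (SE 0.85, edgeR adjusted p = 0.044) that did not pass on deposited counts (-3.50, SE 1.27, edgeR adjusted p = 0.24). The call of the 86-nt form on reads was lost when any library but NSun2 -/- replicate 4 was left out (edgeR adjusted p = 0.065 to 0.144), while that of the 78-nt form passed in all 8 such fits (edgeR adjusted p = 0.0175 to 0.0352). A second form of chr6.trna1033, of 80 nt, had 8, 13, 38 and 18 reads in WT and 0, 1, 1 and 1 in NSun2 -/- skin. Together the 3 forms had 40, 53, 100 and 65 reads in WT and 2, 1, 3 and 5 in NSun2 -/- skin, and the genotypes did not overlap. Pol III counts at chr6.trna1033 were 3 and 6 in WT and 6 in NSun2 -/- skin, and it was not bound by the rule above.

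Reads with the added CCA end came from the 3′ side of the tRNA and were far fewer than the 5′ fragments. No read covered at least 90% of a CysGCA gene and carried CCA, the form counted as mature tRNA, in any of the 8 libraries. At these depths a count of 0 allows a share of up to 0.0148% to 0.0916% of CysGCA reads, a bound that covers counting error only. TyrGTA and AsnGTT had none either, while AspGTC had 24642 such reads of 1621316 over 19 families. 3′ CCA fragments of 25 to 40 nt numbered 45, 51, 16 and 29 reads in WT and 12, 3, 15 and 34 in NSun2 -/- skin, with overlap. Their log2 fold change was -2.03 on deposited counts (SE 0.81, edgeR adjusted p = 0.104, beside 18.9% of 37 families called, 10.8% higher and 8.11% lower). On reads, with a mean of 35.2 in WT and 16.0 in NSun2 -/- skin, the fit gave 0.32 (SE 0.58, edgeR adjusted p = 0.674) relative to the other families' 3′ CCA fragments. Scaled by all reads of the library it gave -0.94, beside a median of -1.20 over the 33 families, so the direction depended on the scaling.

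Shorter CCA reads, under 25 nt, separated by the base at position 62, in capitals below.
3′ piece with G at position 62: atccGggtgccccctcca
3′ piece with A at position 62: atccAggtgccccctcca

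Pieces with A at position 62 of all lengths under 25 nt had 32, 39, 36 and 61 reads in WT and 4, 3, 0 and 1 in NSun2 -/- skin. Those with G at position 62 had 132, 147, 130 and 157 reads in WT and 154, 92, 77 and 49 in NSun2 -/- skin, and the genotypes overlapped. Tested singly on reads, the 18-nt piece with A had a log2 fold change of -4.06 (SE 0.68, edgeR adjusted p = 0.0117) and that with G -0.75 (SE 0.45, edgeR adjusted p = 0.357). On deposited counts the piece with A gave -4.16 (edgeR adjusted p = 0.0717). The letters CCAGG of the pieces with A are found in the T arm of 39 G16 loci and 2 T16 loci, chr9.trna593 and chr17.trna458, and the letters CCGGG of those with G in 5 T16 and 3 G16 loci. Most loci with A at position 62 thus carry G at position 16, but base 16 and base 62 do not always go together.

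**Figure D4:**
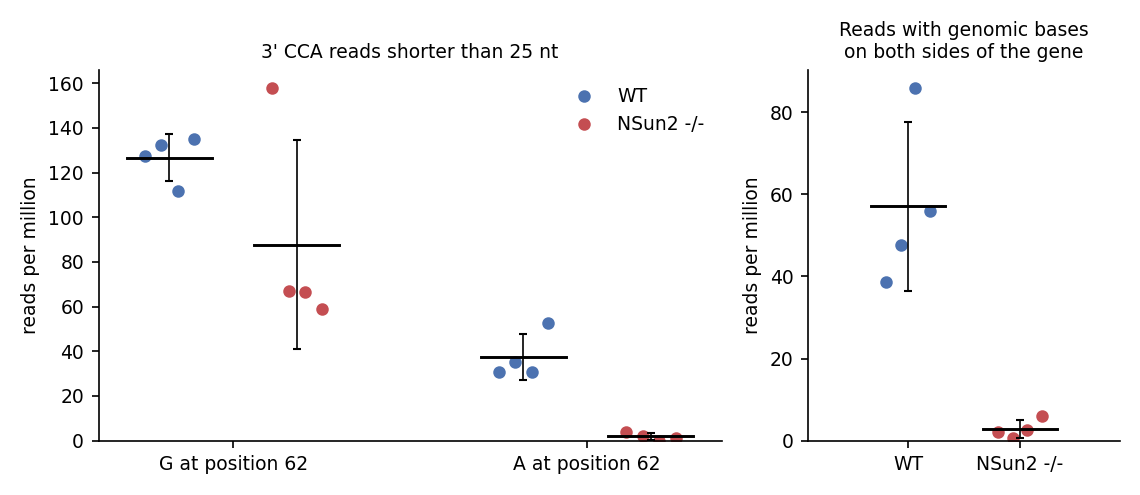
CysGCA 3′ CCA reads shorter than 25 nt in RPM, by the base at position 62 (left), and reads with genomic bases on both sides of the gene in RPM (right). Points are the 4 WT and 4 NSun2 -/- libraries, lines the means and bars the SD. Pieces with A at position 62 and reads with flanking bases do not overlap between genotypes.

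Mismatches within reads can mark modified bases that disturb reverse transcription. At position 57, which is A58 in the standard numbering and is often 1-methyladenosine in tRNAs, the base differed from the gene in 79.2%, 75.4%, 56.8% and 67.3% of the CysGCA reads covering it in WT. In NSun2 -/- skin it differed in 87.0%, 85.3%, 85.1% and 91.6%, above all WT libraries. The exact permutation p was 0.02857, and 0.114 after adjustment over the positions tested. In deposited counts the genotypes overlapped (exact permutation p = 0.314). At least 119 reads covered the position in each library. Among them were the 78-nt and 80-nt forms of chr6.trna1033, which match the gene there. These forms had 27, 33, 71 and 49 reads in WT and 1, 1, 3 and 1 in NSun2 -/- skin. Their part in the difference between genotypes was not tested.

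Among isoacceptor families, CysGCA 5′ fragments ranked 9 of 42 in WT by deposited counts and 11 by reads. AsnGTT, TyrGTA and AspGTC were set beside it for comparison. AsnGTT had a log2 fold change of 1.31 (edgeR adjusted p = 0.0103), with 1.37 on reads (edgeR adjusted p = 0.0026). TyrGTA gave 0.62 (edgeR adjusted p = 0.226). AspGTC gave -0.61 (edgeR adjusted p = 0.226). Over the 8 libraries the deposited 5′ fragment levels of AspGTC, AlaCGC and ProCGG were most like those of CysGCA, with Pearson r of 0.66, 0.59 and 0.53 on log2 CPM. On reads the most alike were AlaTGC, ThrTGT and AlaCGC, with r of 0.86, 0.82 and 0.82. The points share their libraries and both genotypes. At the gene level, Pol III bound 9 of 14 TyrGTA genes, 10 of 24 AspGTC genes and 6 of 175 AsnGTT genes.

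The bisulphite files list a cytosine with at least 10 reads, and CysGCA was nearly absent from them. Only chr11.trna1442 had listed cytosines, and only in NSun2 -/- replicate 2. Its 10 cytosines were covered by 11 or 12 reads each. At gene positions 48 and 49, 9 of 11 (81.8%) and 10 of 12 reads (83.3%) were unconverted. Gene positions run 1 lower than the standard tRNA numbering here, as at A58, so these bases are C49 and C50 in that numbering, and gene position 47, which is C48, was not listed. Positions 24, 31, 67 and 68 were as high, at 75.0% to 83.3%, whereas 0 of 12 reads were unconverted at position 39 and 2 of 11 at position 71. Positions 11 and 13 lay between, at 41.7% and 33.3%. With a single library no comparison of genotypes could be made. Identical copies have no unique alignment, and unique alignment was required. Sequences found once in mm9 were not listed either, among them those of chr11.trna1444 and chr6.trna1029, which differ from each other by C50T alone. That of chr11.trna1442 is also found once, but differs from the sequence shared by 4 other T16 genes by C50T alone. The C-to-T conversion applied before alignment removes the C50T difference in both cases. Why CysGCA was nearly absent was not tested.

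The same files checked the labels. Nsun2 had 31, 23, 48 and 43 listed cytosines in the WT libraries and 0 in all 4 NSun2 -/- libraries. The epidermal genes Krt5, Krt14, Krt1, Krt10 and Lor and the dermal collagens Col1a1, Col1a2 and Col3a1 were listed in all 8 libraries, and the non-skin genes Alb, Apoa1, Gfap and Ins2 in none. Muscle and fat genes, among them Acta1, Ckm, Adipoq and Fabp4, were also listed in all 8 libraries. Acta1 had 269, 306, 337 and 314 listed cytosines in WT and 386, 382, 406 and 403 in NSun2 -/- skin, without overlap. Fabp4 had 35, 36, 21 and 43 in WT and 79, 47, 81 and 50 in NSun2 -/- skin. Cd74, a leukocyte gene, had 12, 18, 35 and 34 in WT and 156, 35, 122 and 117 in NSun2 -/- skin. These 3 genes were chosen after their values were seen, and the number listed depends on depth. In NSun2 -/- replicate 2, which listed the fewest cytosines in all, Myh4 had 668 and Adipoq 77, within the WT ranges of 260 to 715 and 76 to 96. Of the leukocyte genes Ptprc was listed in 1 library, with 3 cytosines, and of the blood genes Hbb-b1 in 5 libraries and Hba-a1 in none. All 4 muscle genes were listed in 7 libraries, with 1310, 1423, 1371 and 806 cytosines in WT and 1913, 1389, 1823 and 1830 in NSun2 -/- skin. The 3 fat genes had 131, 163, 108 and 158 in WT and 414, 152, 514 and 228 in NSun2 -/- skin, and both sums overlapped. The sums over the 3 dermal and the 5 epidermal genes were highest in the same 3 NSun2 -/- libraries, replicates 1, 3 and 4. The dermal genes had 3895, 3887, 3640 and 3565 cytosines in WT and 4513, 3540, 4404 and 4369 in NSun2 -/- skin. The epidermal genes had 942, 811, 1074 and 937 in WT and 1218, 785, 1363 and 1187 in NSun2 -/- skin. These 3 libraries also listed the most cytosines in all. The part of the cell mix in the CysGCA values was not tested, since fewer cells of a type and less RNA per cell cannot be told apart in whole skin. The libraries listed 156018 to 196679 cytosines in WT and 110324 to 665049 in NSun2 -/- skin.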

How the data were processed

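Mouse back skin was profiled by tRNA-seq, RNA bisulphite sequencing and Pol III ChIP-seq. The authors aligned tRNA-seq and ChIP-seq reads to mm9 with Bowtie and deposited counts per tRNA gene, with reads that match several genes shared out among them according to the methods. In the deposited tRNA-seq counts, however, abundant CysGCA reads were multiplied by their number of matching gene copies. They aligned bisulphite reads with Bismark 0.7.6, keeping unique best matches, and deposited unconverted and converted read counts and the percent unconverted at every cytosine covered by 10 reads or more. The title of WT Pol III replicate 1 reads PolII although its antibody label is POLR3A.

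The members, gene lists and groupings were chosen with earlier results of these data known. Read sequences were placed on genes with mm9 coordinates, allowing up to 4 mismatches without gaps. Families, genes and sequences were tested over the whole table with edgeR 4.0.16 (R 4.3.3, TMM, filterByExpr, quasi-likelihood test, Benjamini-Hochberg threshold 0.05), WT 4 against NSun2 -/- 4. Shares were compared by two-sided exact permutation over 70 assignments. DESeq2 1.42.0, other scalings and filters, a replicate block and leaving out each library were alternatives. Fits on reads (each sequence once, divided by the common factor of its counts) were added after the data were seen; rare sequences may be divided too far. In a test on simulated data with 4-fold changes, the fit recovered 9 of 10 changed families, 77.4% of changed genes and none of the 154 changed read sequences tested, and 39.7% of sequences changed 16-fold.

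Pol III binding used a pseudocount of 1 count. Library totals were 36866 and 63136 (WT), 95112 (NSun2 -/-), 15918 and 14483 (inputs). The labels do not say whether the replicates are separate mice. The methods describe those of tRNA-seq and bisulphite sequencing as independent biological replicates. The p-values measure the spread between libraries. Named genes and sequences were the bound genes, those past the threshold (up to 5 per direction), the 5 most abundant 5′ fragments, the 3 families most alike, 3 comparison families, Nsun2 and every listed cytosine.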

Additional observations from a re-analysis of the deposited data

Results flagged for a closer look

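In 5 groups of 4 libraries a single library stood apart from the other 3 (Dixon's test, which flags about 1 group in 20 by chance). The number of flagged groups was not set against that rate. NSun2 -/- replicate 1 was high in CCA reads shorter than 25 nt, at 162 RPM, and in those with G at position 62, at 158. NSun2 -/- replicate 3 was high in CysGCA reads that could not be placed on a gene, at 30.3 RPM. NSun2 -/- replicate 4 was low in reads placed elsewhere in the gene, at 396 RPM. WT replicate 3 was high in the share of 5′ fragment reads that ended at position 32, at 89.0%.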

How the results depend on the processing

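Values that kept their direction and side of the threshold are not listed. The family change of 5′ fragments on deposited counts, 0.11, did not keep its sign: it was -0.0114 with each sequence at its highest listed count, -0.17 for fragments of 30 to 36 nt, -0.0236 without mismatches, -0.0617 scaled by all counts, -0.0487 with DESeq2 and 0.99 on reads. The cause of most such shifts was not tested, but the value on reads differs by construction, since copies weigh 37 to 7. All CysGCA counts (0.35) gave -0.0795 scaled by all counts and 1.12 on reads (edgeR adjusted p = 0.0194). 3′ CCA fragments (-2.03) gave 0.32 on reads, -0.94 on reads scaled by all reads (median of all families -1.20), -3.51 scaled by all counts (edgeR adjusted p = 0.00165) and -2.08 with DESeq2 (adjusted p = 0.0489). Genes called (4) were 7 on reads. Scaled by all counts they were 0, beside 7 higher and 16 lower of 352 genes. With no filter they were 2, beside 13 higher and 10 lower of 1143. DESeq2 called 18 of 31 CysGCA genes (2 higher, 16 lower), beside 52 higher and 49 lower of 1143. On reads (7 genes), scaling by all reads called 23 of 25 (6 higher, 17 lower), beside 38 higher and 48 lower of 289. DESeq2 on reads called 23 of 31 (6 higher, 17 lower), beside 45 higher and 47 lower of 1143. Read sequences called (5) were 0 with no filter, beside 22 higher and 10 lower of 32419. DESeq2 called 12 of 317 (4 higher, 8 lower), beside 313 higher and 538 lower of 32419. On reads (7 sequences) DESeq2 called 16 of 317 (10 higher, 6 lower), beside 480 higher and 615 lower of 32419. Reads over 90% of the gene with or without CCA, 0 with it, came to 186 deposited counts (log2 fold change -4.22, edgeR adjusted p = 0.00176), a share difference of -0.0509 percentage points. These reads were the 78-nt and 80-nt forms of chr6.trna1033 given above. The fit called 1 higher and 2 lower of 21 families. On reads the 5′ fragment share differed by 4.92 points and the CysGCA share of the library by 0.535, against -0.0241 in deposited counts. Without the input rule 21 CysGCA genes had enough Pol III counts, as had 296 of all tRNA genes. At 4-fold over input 4 were bound (154 of all), and 5 with at least 20 counts in the WT libraries (205 of all). The genotype ratio was -0.19 when scaled by counts at bound genes and -0.0067 with a pseudocount of 5. Scaling by all counts moved the median log2 fold change of all genes from 0.10 to -0.33.

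Leaving out each library in turn gave -0.32 to 0.31 for 5′ fragments, 0.80 to 1.13 for 5′ fragments on reads, -2.82 to -1.63 for 3′ CCA fragments, 0.07 to 0.67 for all counts and 0.93 to 1.36 for all reads, whose call was lost without WT replicate 2 (edgeR adjusted p = 0.0516) or NSun2 -/- replicate 3 (edgeR adjusted p = 0.0691). Genes called were 0 to 2, and 4 to 21 on reads. The 21, without WT replicate 1, were 4 higher and 17 lower, beside 41 higher and 43 lower of 292 genes. Sequences called were 0 to 1, and 2 to 5 on reads. The 5′ fragment share differed by -0.0524 to 3.06 points, and by 3.17 to 6.06 on reads, with an exact permutation p of 0.0571 without WT replicate 1 or any of the NSun2 -/- replicates. 3′ CCA fragments were called without NSun2 -/- replicate 4 (edgeR adjusted p = 0.0436), as was the CysGCA share of reads (exact permutation p = 0.02857). The mature share stayed at 0, the CysGCA share of the library differed by -0.103 to 0.0292 points and by 0.42 to 0.678 on reads, end positions called were 0 to 2, mismatch positions 0, and the Pol III ratio -0.06 to 0.19.

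Replicate numbers did not pair the libraries: same-numbered libraries correlated at 0.0133, -0.193, 0.0423 and -0.0768. With the number as a replicate block, 5′ fragments on reads gave 1.00 (edgeR adjusted p = 0.0632). Their share of reads, with the same difference of 4.92 points by construction, had an exact permutation p of 0.125, the smallest that 16 assignments can give. Genes called were 0, as over all 352 genes tested. On reads 20 were called (4 higher, 16 lower), beside 39 higher and 38 lower of 288 genes. Sequences called were 0 in both, as over all sequences tested. Of 444 refits of the named genes and sequences, 0 reversed, 136 lost their call and 10 gained it. No bisulphite cytosine could be tested under any coverage minimum.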
